A study of Homo sapiens with 10 samples.

Results

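The line-dependent response to SHIP2 knockdown is the difference between 2 esophageal squamous carcinoma cell lines, KYSE-410 and KYSE-30, in how each gene changed after the same siRNA. For each gene it was computed on the log2(CPM + 1) scale, where CPM is a gene's read count scaled to the size of its library, as the siSHIP2 minus siCT change in KYSE-410 minus the same change in KYSE-30, and is called the interaction below. An interaction above 0 means that the gene's change was more positive in KYSE-410, and one below 0 that it was more negative there. It was examined in the 11516 of 58302 genes whose mean reached at least 5 CPM with control siRNA in both lines, so that either line had room to move both ways. All 11516 were among the 20466 genes that passed the filter on low values.

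RNA was sequenced from cells collected 48 h after transfection, in 10 libraries and 4 groups. KYSE-410, an established line of esophageal squamous cell carcinoma, was transfected with siSHIP2, an siRNA against INPPL1, in 3 libraries and with siCT, a non-targeting siRNA, in 3. KYSE-30, another such line, received the same siSHIP2 in 2 libraries and the same siCT in 2. A second siRNA named in the study's design, siSHIP2#2, was not analysed here. The controls carry an siRNA too, so each change compares transfected with transfected cells, and since 1 siSHIP2 sequence served both lines, loss of SHIP2 and any other effect of that siRNA cannot be told apart. Whether the replicates of a group came from separate cultures is not given in the labels, and the p-values therefore reflect only library-to-library spread, which may be technical.

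SHIP2, the product of INPPL1, is a lipid phosphatase that removes the 5-phosphate from PI(3,4,5)P3, the lipid that PI3-kinase makes at the plasma membrane and that recruits the kinase AKT. AKT phosphorylates FOXO transcription factors and holds them out of the nucleus, while active FOXO raises genes of growth arrest, autophagy and insulin receptor signalling. SHIP2 also docks on receptor tyrosine kinases and on proteins of endocytosis, actin and cell adhesion.

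The target itself fell in both lines, and further in KYSE-410. INPPL1 (chr11:72223701-72239105, GRCh38) measured 107, 108 and 109 CPM in the KYSE-410 siCT libraries and 44.7, 37.3 and 39.1 CPM with siSHIP2. In KYSE-30 the siCT libraries held 39.9 and 36.2 CPM and the siSHIP2 libraries 23.2 and 24.5 CPM. No siSHIP2 library overlapped a siCT library of its line. The level left was 37.4% of the siCT mean in KYSE-410 and 62.8% in KYSE-30, and the interaction of -0.75 (SE 0.105) had an adjusted p of 7.63e-05 with limma, adjusted over all 20466 tested genes as are all p-values here. The KYSE-30 call alone had an adjusted p of 0.00077, which reached 0.0581 when 1 library was left out. Every difference between the lines is therefore also a difference between a deeper and a shallower knockdown, and cell line and knockdown depth cannot be told apart in this design. Depth here is relative to each line's own control. The KYSE-410 siSHIP2 mean of 40.4 CPM lay near the KYSE-30 siCT mean of 38 CPM and above the KYSE-30 siSHIP2 mean of 23.9 CPM. When each KYSE-30 change was multiplied by 2.16, the ratio of the INPPL1 changes, 2391 of the 11516 genes had a called interaction, 2328 of them among the 5031 called without the multiplication.

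The libraries were alike in the number of genes above 0 (26636 to 28623), and the 10 highest genes took 2.69% to 3.11% of each. The first principal component separated the lines and held 90.2% of the variance, and the second separated siSHIP2 from siCT in KYSE-410 and held 6.4%. Of the squamous markers, TP63 averaged 90.5 CPM in KYSE-410 siCT and 46.2 CPM in KYSE-30 siCT, and KRT5 averaged 13.4 and 0.2 CPM, while KRT14 (0.583 and 5.02 CPM), KRT15 (10.1 and 37 CPM) and COL17A1 (12.6 and 178 CPM) were higher in KYSE-30. The 17 basal squamous markers summed to 2553.1 to 2609.3 CPM in KYSE-410 siCT and 4632.7 to 4816.5 CPM in KYSE-30 siCT. The 16 markers of glandular epithelium summed to 4541.8 to 4623.3 CPM in KYSE-410 siCT and 5125 to 5570.7 CPM in KYSE-30 siCT, with KRT7 higher in KYSE-410 (1810.3 and 46.2 CPM) and KRT8 (1154 and 2560.3 CPM) and KRT18 (696 and 1633 CPM) higher in KYSE-30. The 11 immune markers summed to 14.4 to 16.3 CPM over the KYSE-410 libraries and 36 to 38.9 CPM over the KYSE-30 libraries, with PTPRC, CD3D and CD3E at or below 0.1 CPM as group means. The 10 fibroblast markers summed to 107.2 to 129.7 CPM with siCT and 93.1 to 99.7 CPM with siSHIP2 in KYSE-410, and to 7.75 to 9.19 CPM in KYSE-30. Of these, LUM averaged 107 CPM in KYSE-410 siCT and was at 0 in every KYSE-30 library, whereas PDGFRA, PDGFRB, COL1A2 and COL3A1 stayed at or below 0.325 CPM in both lines. In bulk RNA, fewer cells of a kind and less RNA per cell cannot be told apart.

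Most called interactions came with a call in KYSE-410 and none in KYSE-30. The interaction was called at an adjusted p below 0.05 in 5031 of the 11516 genes, or 43.7%, where 32.4% of all tested genes were called. Of these, 2913 lay above 0 (25.3% of the 11516 genes, background 19.5%) and 2118 below (18.4%, background 12.9%). Among the 5031, KYSE-410 alone was called in 4437, KYSE-30 alone in 99, both lines in the same direction in 53, both in opposite directions in 109, and neither line in 333. The change was larger in KYSE-410 for 4420 of the 5031 and larger in KYSE-30 for 611. Within each line, 7171 genes (62.3%, background 49.9%) were called in KYSE-410 and 406 (3.53%, background 2.36%) in KYSE-30. Across the 11516 genes the changes had an SD of 0.38 in KYSE-410 and 0.16 in KYSE-30. The Pearson r between them was 0.08, and 0.14 with a trend on transcript GC content removed. Both are descriptions across genes that are not independent replicates. The median SE was 0.067 in KYSE-410, 0.082 in KYSE-30 and 0.106 for the interaction.

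The share of interactions above 0 depended on the scaling. It was 57.9% of the called genes with CPM as deposited, 43.7% with TMM scaling, 42.4% with relative log expression scaling, 47.8% with upper quartile scaling, 43.6% with edgeR and 41.5% with DESeq2, although these scalings moved the median interaction of all genes by no more than 0.07. Interactions near 0 thus have no firm sign. In 3061 of the 5031 genes (1736 above 0, 1325 below), the interaction kept its sign and its call without each of the 10 libraries in turn, under the 3 scalings and with a trend on transcript GC content removed. Of the 208 called interactions of at least 2-fold (131 above 0, 77 below), 207 did so.

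**Figure D1:**
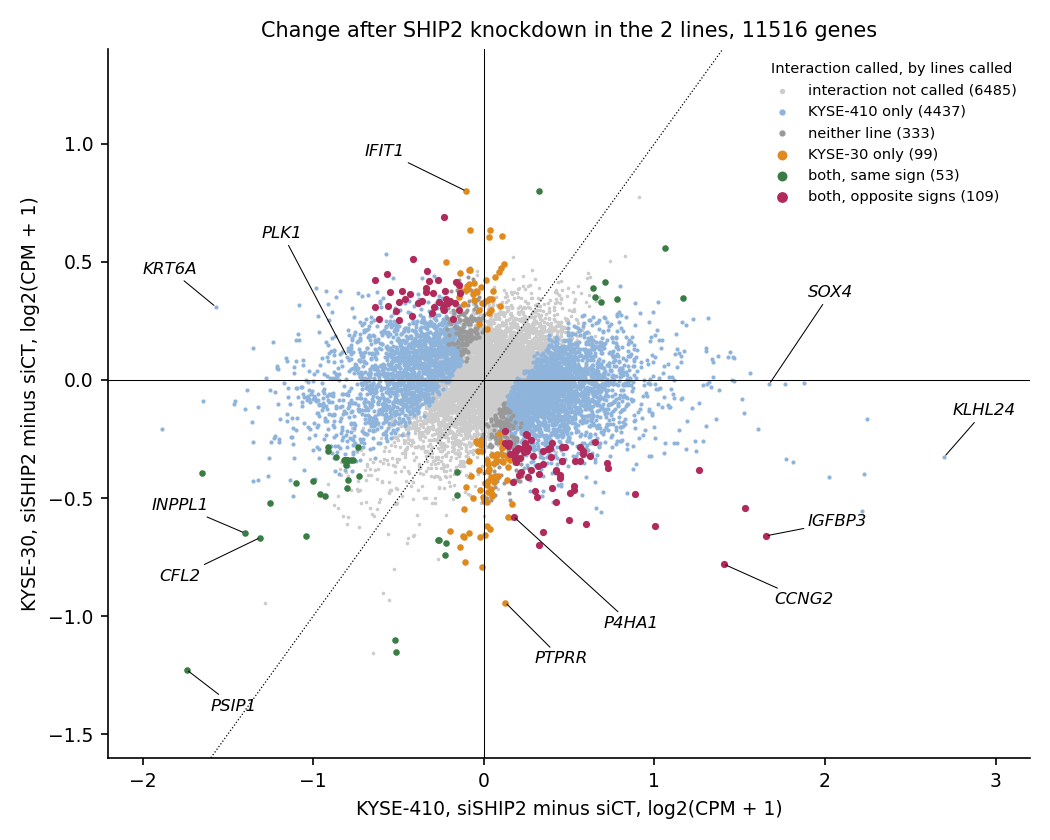
Change after SHIP2 knockdown on the log2(CPM + 1) scale in KYSE-410 (horizontal axis, 3 against 3 libraries) and KYSE-30 (vertical axis, 2 against 2), 1 point per gene for 11516 genes, coloured by whether the interaction was called and in which lines the gene was called. The cloud is wide along the KYSE-410 axis (SD 0.38) and narrow along the KYSE-30 axis (SD 0.16), the dotted line marks equal change, and the 109 genes called in opposite directions lie in the upper left and lower right.

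Large interactions were picked among genes whose siCT and siSHIP2 libraries did not overlap in KYSE-410. The largest of these above 0 belonged to genes that rose several-fold in KYSE-410 and did not rise in KYSE-30. KLHL24 (chr3:183635568-183684477, GRCh38), an adaptor of a ubiquitin ligase that turns over keratin, stood at 9.2, 10.8 and 11.9 CPM in KYSE-410 siCT and at 72.4, 80.9 and 70.1 CPM with siSHIP2. Its KYSE-30 values were 22 and 15.8 CPM with siCT and 14.4 and 14.9 CPM with siSHIP2. The KYSE-410 groups were far apart, while the KYSE-30 siSHIP2 libraries lay just under the lower siCT library. The interaction of 3.02 (SE 0.169, adjusted p 1.04e-07) combined a KYSE-410 change of 2.7 with a KYSE-30 change of -0.32 that was not called (adjusted p 0.199).

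PNRC1, a nuclear receptor coactivator, followed the same course, from 6.35, 6.4 and 6.65 CPM to 30.3, 37.7 and 33.3 CPM in KYSE-410. In KYSE-30 it went from 11.8 and 9.09 CPM to 5.39 and 8.35 CPM, a change of -0.56 that missed the call (adjusted p 0.0696), and its interaction was 2.77 (SE 0.201). PBXIP1, a protein that binds PBX homeobox factors, had an interaction of 2.63 (SE 0.164), and CREBRF, a regulator of CREB3 and of energy storage, one of 2.43 (SE 0.204). CALCOCO1, a receptor for autophagy of the endoplasmic reticulum, gave 2.41 (SE 0.187), with KYSE-410 values of 10.2, 13.1 and 14.6 CPM and then 54.1, 72.5 and 64.4 CPM. Its KYSE-30 groups overlapped, at 34.2 and 27.4 CPM and 25.9 and 28.4 CPM. JMY, an actin nucleator and p53 cofactor, rose from 8.39, 10.5 and 9.94 CPM to 34.5, 40.5 and 34 CPM in KYSE-410, against 13.9 and 11.8 CPM and 9.79 and 9.89 CPM in KYSE-30, for an interaction of 2.16 (SE 0.152). SOX4, a developmental transcription factor, rose in KYSE-410 from 134, 148 and 137 CPM to 447, 467 and 428 CPM, whereas KYSE-30 held 11.7 and 10.8 CPM and 10.3 and 12 CPM, with an interaction of 1.69 (SE 0.0991) and a control level more than 10 times lower in KYSE-30. All of these interactions were called, with adjusted p between 1.04e-07 and 1.16e-06.

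FOXO target genes formed the list with the highest median interaction. Of its 22 measured genes, 18 had a called interaction above 0 and 1 below, and the list's median was 0.63 against 0.06 over all tested genes. In KYSE-410 alone, 16 rose and 1 fell (median 0.52, background 30.6% higher and 19.3% lower). In KYSE-30 1 rose and 4 fell (median -0.11, background 0.811% higher and 1.54% lower). These backgrounds cover all tested genes. Of the 11516 genes, 4136 rose and 3035 fell in KYSE-410, and 126 rose and 280 fell in KYSE-30. The 3 other scalings left the list's interaction counts at 18 and 1. CITED2, a transcription cofactor that FOXO induces, measured 19.6, 21 and 19.3 CPM and then 59.9, 84.3 and 68.8 CPM in KYSE-410. In KYSE-30 it measured 50.4 and 46.3 CPM and 44.6 and 50.9 CPM, so the siSHIP2 libraries enclosed the siCT ones, and the interaction was 1.78 (SE 0.149, adjusted p 1.16e-06). KLF6, a zinc finger factor, had an interaction of 1.25, the ubiquitin ligase FBXO32 one of 0.94, the repressor BCL6 one of 0.89, the deubiquitinase CYLD one of 0.86, and the pro-apoptotic BCL2L11 one of 0.5. The 4 that fell in KYSE-30 were CCNG2, TXNIP, CAT and RBL2, and the 1 that rose there was TRIB1. TXNIP, an arrestin-family brake on glucose uptake, and CAT, the peroxide-degrading catalase, changed by -0.58 and -0.33 in KYSE-30 and by 0.14 and 0.14 in KYSE-410, where neither was called. All 5 lost their KYSE-30 call when the GC trend was removed, and the values behind that trend are given with the genes that moved in opposite directions. SOD2, a mitochondrial superoxide dismutase, was the 1 gene below 0 (-0.44), falling by 0.52 in KYSE-410. The list was drawn up with earlier results of these data known, so its direction is not independent evidence.

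Of the FOXO factors themselves, FOXO3 rose in KYSE-410 from 109, 119 and 109 CPM to 144, 140.5 and 128 CPM and measured 94.2 and 95.4 CPM and 86.1 and 90.6 CPM in KYSE-30, with an interaction of 0.39 (SE 0.0876, adjusted p 0.00297). FOXO1 showed no called change in either line, with values of -0.02 and -0.1 and overlapping groups in both. FOXO4, which lay under the 5 CPM limit in KYSE-410, went from 2.95, 2.6 and 3.75 CPM to 8.79, 11.7 and 11.2 CPM there and from 7.59 and 5.65 CPM to 5.49 and 4.8 CPM in KYSE-30, an interaction of 1.8 (SE 0.213). INSR, the insulin receptor and a FOXO target, also lay under that limit, and moved from 1.75, 1.8 and 1.45 CPM to 6.5, 8 and 6.64 CPM in KYSE-410 and from 10.3 and 9.09 CPM to 8.19 and 8.35 CPM in KYSE-30, an interaction of 1.8 (SE 0.168).

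The 131 genes with a called interaction of at least 2-fold above 0 were set beside all 11516 genes, which include them. The letters TGTTTAC, the core that forkhead factors such as FOXO bind, were looked for in RefSeq promoter windows (GRCh38.p14). These windows run from 250 bases before to 50 bases after an annotated start. Both strands were searched, and a gene counted when any of its windows held the letters. The letters were present in 15 of the 93 genes of the 131 that had a window (16.1%), in 0 of the 51 matched genes with a called interaction of at least 2-fold below 0, in 3.5% of the 8247 matched genes among the 11516, and in 4.19% of all 27305 genes of the table. The windows of the 131 genes had a median GC content of 64.0% and those of the 11516 genes 65.0%. Of the genes described here with a large interaction above 0, JMY and HBP1 held the letters, and their stretches are shown with the match in capitals, 5′ to 3′ on the plus strand, JMY at chr5:79236050-79236149 and HBP1 at chr7:107168783-107168882.
JMY: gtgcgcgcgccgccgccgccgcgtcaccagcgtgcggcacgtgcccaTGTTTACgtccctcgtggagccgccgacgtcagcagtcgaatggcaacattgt
HBP1: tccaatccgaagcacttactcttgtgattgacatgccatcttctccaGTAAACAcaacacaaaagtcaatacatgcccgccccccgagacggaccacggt
The match begins 34 bases before the annotated start in JMY and 173 bases before it in HBP1, where it reads GTAAACA, the same letters on the other strand. A match is a description of these letters and not a bound site. The 131 genes were picked by their interaction in these same data, and the search was not planned beforehand. The shares are therefore not independent evidence.

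Lysosome and autophagy genes, many of which FOXO and the lysosomal regulator TFEB can raise, lay mainly above 0 as well. Of 34 measured genes, 21 had a called interaction above 0 and 1 below (median 0.39), and under TMM scaling 18 and 2. TP53INP2, a nuclear protein that moves to forming autophagosomes, measured 6.25, 6.2 and 6.6 CPM and then 24.3, 29 and 24.7 CPM in KYSE-410, and 13.4 and 12.8 CPM and then 12.8 and 13.1 CPM in KYSE-30. GABARAPL1, an ATG8-family protein of the autophagosome membrane, rose in KYSE-410 (31.1, 30.9 and 30.1 CPM, then 68.9, 83.5 and 73.2 CPM) and fell in KYSE-30 (80.4 and 68.6 CPM, then 53.3 and 60.3 CPM). Their interactions were 1.89 (SE 0.132) and 1.64 (SE 0.119), and the KYSE-30 call of GABARAPL1 was lost with the GC trend removed (adjusted p 0.0705). The kinase ULK1, which starts autophagy, had an interaction of 1.05 (adjusted p 4.4e-05), and MAP1LC3B, the LC3 protein, one of 0.79 (adjusted p 4.76e-05). Proton pump subunits ATP6V0A1, ATP6V1A, ATP6V1H and ATP6V0D1 lay between 0.37 and 0.72, all called. The protease CTSZ was the 1 gene below 0 (-0.57).

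**Figure D2:**
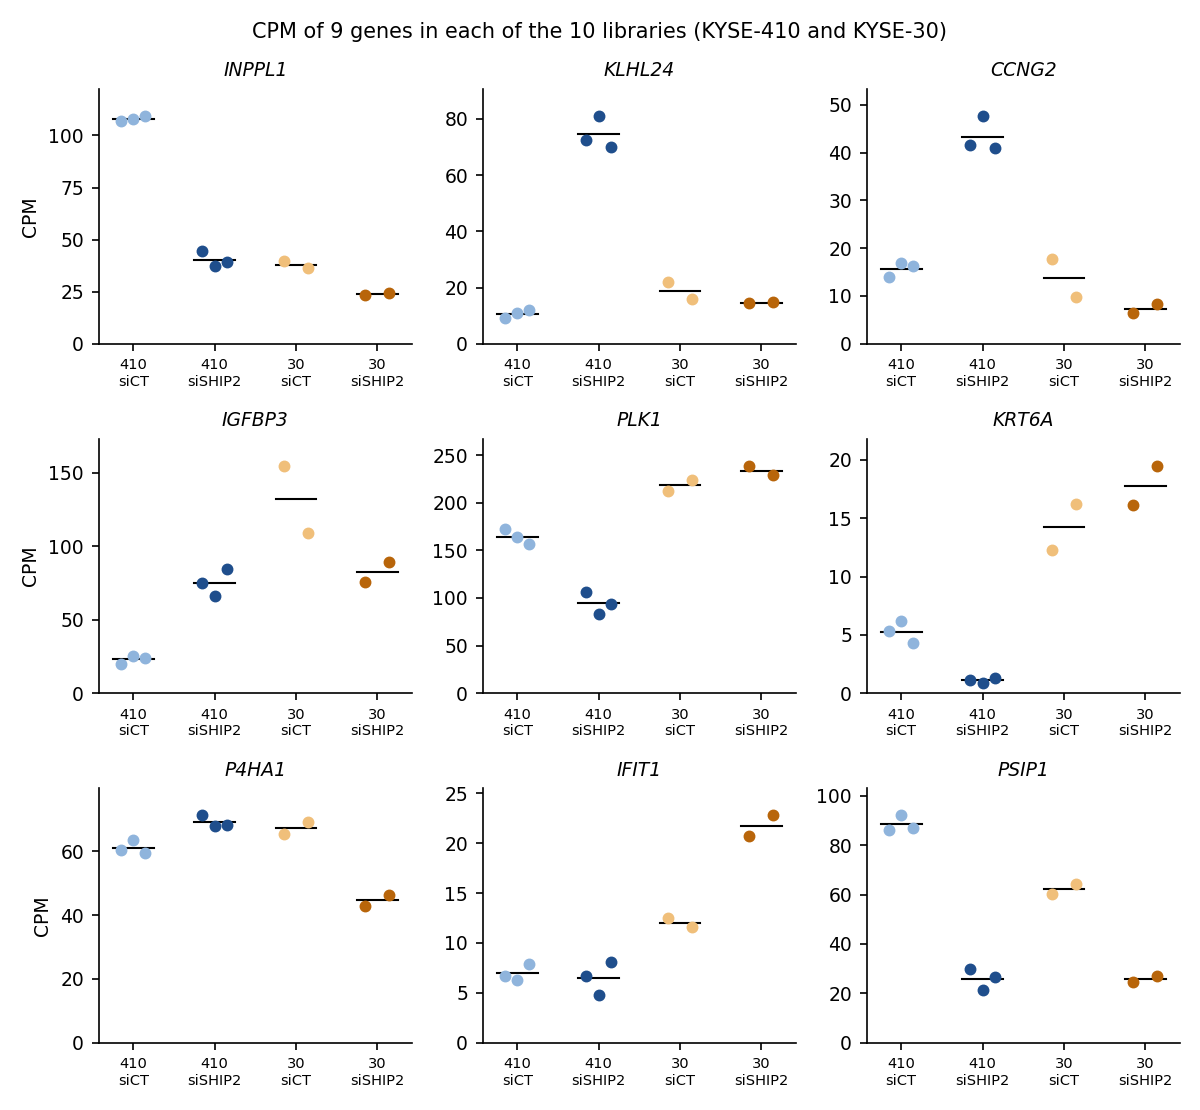
CPM (vertical axes, from 0) of 9 genes in each of the 10 libraries, with siCT and siSHIP2 of KYSE-410 (3 libraries each) and of KYSE-30 (2 each) from left to right. Points are libraries and bars are group means. KLHL24 rises and PLK1 and KRT6A fall in KYSE-410 only by the calls, CCNG2 and IGFBP3 move in opposite directions, P4HA1 falls and IFIT1 rises in KYSE-30, and INPPL1 and PSIP1 fall in both lines.

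Insulin and EGF receptor signalling inputs and PI3K, AKT and mTOR components split in both directions. Of 17 signalling inputs, 7 had a called interaction above 0 and 5 below (median 0.12). IGFBP3, which binds insulin-like growth factors outside the cell, stood highest and is described with the genes of opposite direction. SOS1 and SOS2, exchange factors that load RAS, had interactions of 0.84 (SE 0.0969) and 1.06 (SE 0.106), and IRS2, an insulin receptor substrate and FOXO target, one of 0.75 (SE 0.154). Below 0 were the receptors MET (-0.92), EGFR (-0.78) and IGF2R (-0.77) and the adaptors SHC1 (-0.58) and IRS1 (-0.46). EGFR fell in KYSE-410 from 277, 301 and 261 CPM to 204, 160.2 and 153 CPM and measured 2350.3 and 2291 CPM and 2468 and 2439 CPM in KYSE-30. ERBB2 was not called in either line (0.06 in KYSE-410, -0.06 in KYSE-30).

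Of 29 PI3K, AKT and mTOR components, 8 interactions were called above 0 and 8 below, near the 25.3% above and 18.4% below over all 11516 genes, around a median of 0.01 that became -0.07 with TMM scaling. With the GC trend removed, 8 were called above and 4 below. Those above 0 included PIK3C3, the PI3-kinase of autophagy (0.86, SE 0.0986), TSC1, a brake on mTORC1 (0.71, SE 0.0987), the regulatory subunit PIK3R3 (0.73) and RICTOR of mTORC2 (0.65). Those below 0 included MLST8, shared by both mTOR complexes (-0.9, SE 0.134), AKT1 (-0.39, SE 0.0687) and AKT2 (-0.2, adjusted p 0.0335), which lost its call with the GC trend removed (adjusted p 0.2) and when 1 library was left out (up to 0.086). In KYSE-30 limma and edgeR called 0 of the 29 and DESeq2 1, and at an unadjusted p below 0.05 3 were higher and 5 lower. Phosphoinositide phosphatases counted 6 above 0, also near the share over all 11516 genes, and 2 below among 22, INPPL1 being one of the 2. MTM1 (0.81) and MTMR3 (0.54), which act on 3-phosphates of endosomes, had the smallest adjusted p after it.

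Immediate early and ERK feedback genes leaned above 0, with 11 called above and 3 below among 20 (median 0.33). The transcription factor EGR1 measured 22, 25.2 and 26.1 CPM and then 69, 92.9 and 69.9 CPM in KYSE-410, and 8.94 and 9.94 CPM and then 6.79 and 9.49 CPM in KYSE-30, where the groups overlapped, for an interaction of 1.82 (SE 0.187). JUND (1.27), ETV5 (0.94) and the ERK phosphatases DUSP6 (1.06), DUSP5 (0.65) and DUSP4 (0.43) also lay above 0. JUNB went against them, falling in KYSE-410 from 97.6, 96.6 and 94.6 CPM to 86.2, 77.2 and 76.2 CPM and rising in KYSE-30 from 20.8 and 17.8 CPM to 24 and 28.5 CPM. The ephrin receptor EPHA2 (-0.53) and IER3 (-0.35) were the other two below 0.

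Genes of mitosis fell in KYSE-410 and were not called in KYSE-30. Of 35 measured G2/M genes, 29 had a called interaction below 0 and 0 above, with a median of -0.48. In KYSE-410 32 fell and 1 rose (background over all tested genes 19.3% lower and 30.6% higher). Of the 11516 genes, 3035 fell and 4136 rose there. In KYSE-30 limma called 0 of the 35, as it did under TMM and relative log expression scaling, while upper quartile scaling called 1 higher. At an unadjusted p below 0.05, 5 of the 35 were higher and 0 lower in KYSE-30, edgeR called 0, and DESeq2 called 1 higher. The interaction counts became 33 below and 0 above under each of the 3 scalings. PLK1 (chr16:23677656-23690367, GRCh38), the polo-like kinase of mitotic entry, measured 173, 164 and 157 CPM with siCT and 106, 82.9 and 93.8 CPM with siSHIP2 in KYSE-410. In KYSE-30 it measured 212 and 224 CPM with siCT and 239 and 229 CPM with siSHIP2, slightly higher and without a call (adjusted p 0.614). The interaction was -0.9 (SE 0.112, adjusted p 3.04e-05). BIRC5, the survivin subunit of the chromosomal passenger complex, went from 135, 128 and 124 CPM to 74.5, 51.8 and 63.5 CPM in KYSE-410 and from 227 and 228 CPM to 237 and 229.9 CPM in KYSE-30 (interaction -1.06, SE 0.139). MKI67, the proliferation antigen Ki-67, gave -1.06 (SE 0.143), and FOXM1, the factor that drives many of these genes, -1.09 (SE 0.147). The kinetochore histone CENPA (-0.89), topoisomerase TOP2A (-0.9), the spindle protein PRC1 (-0.81) and CDK1 (-0.69) followed, and BUB3 and CDC25C were among the 6 without a called interaction.

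Promoters of many mitotic genes are known to share an element. The cell cycle homology region, read here as TTTGAA or TTCGAA on either strand, is known as the landing site of the DREAM complex and its MYBL2 and FOXM1 counterpart. It was found in 21 of the 28 G2/M genes with a window (75%), in 15.4% of the 8247 matched genes and in 19.5% of all 27305 genes of the table. Stretches of PLK1 at chr16:23678813-23678912, CDC20, the activator of the anaphase-promoting complex, at chr1:43358756-43358855, and CCNB2, a mitotic cyclin, at chr15:59105070-59105169 are shown on the plus strand with the match in capitals.
PLK1: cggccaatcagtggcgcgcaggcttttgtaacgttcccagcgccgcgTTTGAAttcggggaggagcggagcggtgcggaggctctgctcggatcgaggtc
CDC20: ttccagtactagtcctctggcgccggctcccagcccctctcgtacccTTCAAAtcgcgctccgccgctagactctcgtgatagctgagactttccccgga
CCNB2: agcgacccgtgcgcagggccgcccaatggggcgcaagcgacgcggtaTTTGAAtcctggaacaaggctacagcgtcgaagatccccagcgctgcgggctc
The match begins 29 bases before the annotated start in PLK1 and in CCNB2 and 178 bases before it in CDC20. The element is a known property of such genes, and finding it draws nothing about the factors that bind it. The interactions of CDC20 and CCNB2 were -0.62 (SE 0.0959) and -0.37 (SE 0.103).

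G1/S and replication genes had called interactions of both signs. Of 36, 4 interactions were called above 0 and 8 below, with a median of -0.03, and under TMM scaling 1 and 10. In KYSE-30, 5 rose and 0 fell. RRM2, a subunit of ribonucleotide reductase, was higher in KYSE-30 with siSHIP2 (364 and 365 CPM against 276 and 289 CPM) and lower in KYSE-410 (306, 287 and 294 CPM against 338, 321 and 319 CPM), an interaction of -0.51 (SE 0.0727). POLD1, the catalytic subunit of DNA polymerase delta, rose by 0.38 in KYSE-30, a call lost with the GC trend removed (adjusted p 0.0744), and had no called change in KYSE-410 (-0.09). E2F1 rose in both lines, by 0.61 in KYSE-410 and 0.45 in KYSE-30, with no called difference (adjusted p 0.339). GINS1, of the replicative helicase, fell in KYSE-410 (interaction -0.66, SE 0.121). CCND1, cyclin D1, went from 649.8, 633 and 605 CPM to 499, 392 and 434 CPM in KYSE-410 and from 435 and 466 CPM to 435 and 474 CPM in KYSE-30 (interaction -0.53, SE 0.111). Among 7 CDK inhibitors, CDKN2B (1.2), CDKN2D (0.79) and CDKN1B (0.74), which codes for p27, lay above 0. CDKN3 (-1.04), CDKN2C (-0.52) and CDKN1A (-0.37), which codes for p21, lay below, all 6 called. CDKN2B measured 43.4, 47.9 and 49.4 CPM and then 107, 101 and 93.8 CPM in KYSE-410, and 52.8 and 48.8 CPM and then 43.2 and 50.9 CPM in KYSE-30.

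**Figure D3:**
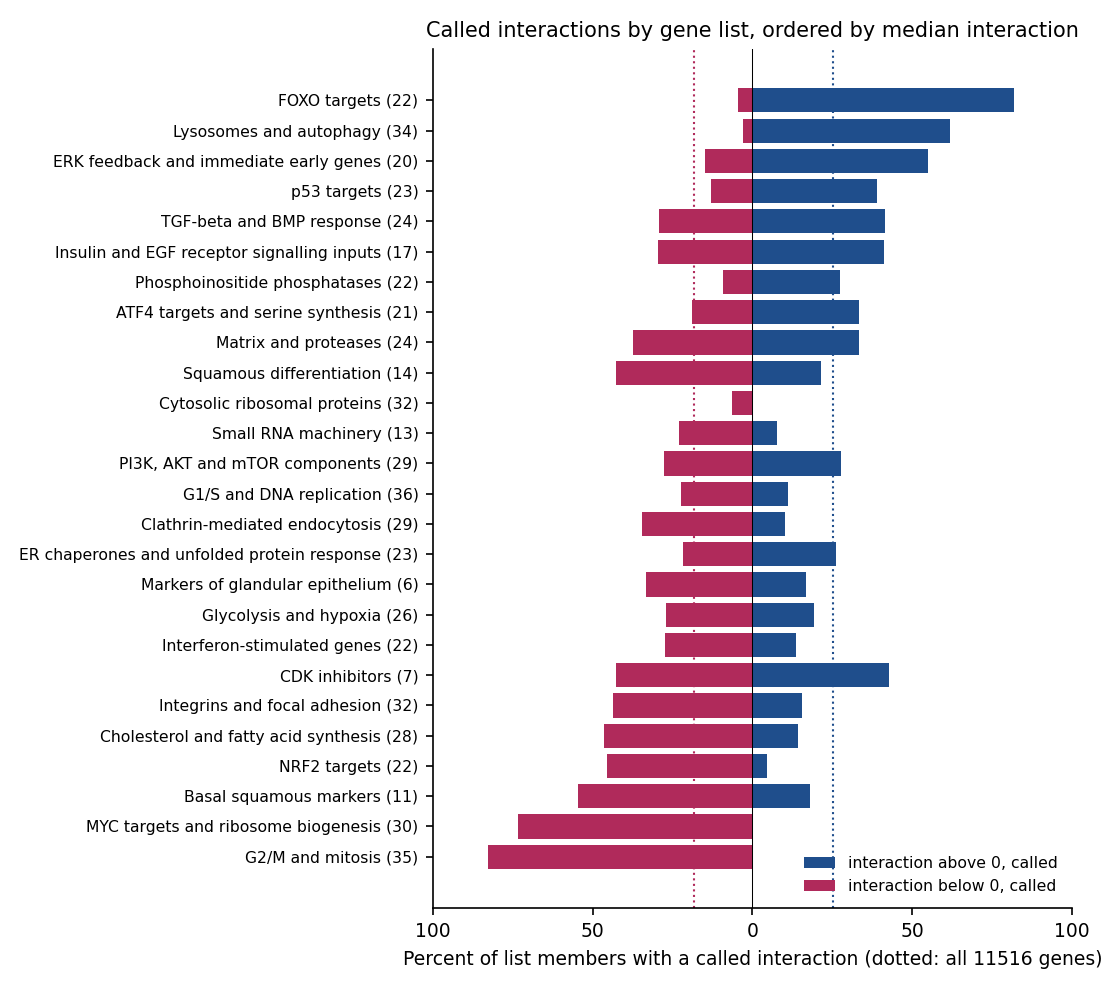
Percent of the measured genes of each list (number in brackets) whose interaction was called above 0 (right, blue) or below 0 (left, red), for lists with at least 6 such genes, ordered by median interaction. The dotted lines mark the shares over all 11516 genes, and the FOXO target list at the top and the G2/M list at the bottom lie farthest from them.

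Ribosome biogenesis genes fell in KYSE-410, whereas few interactions of ribosomal proteins were called. Of 30 MYC target and ribosome biogenesis genes, 22 had a called interaction below 0 and 0 above, with a median of -0.39. In KYSE-30, 3 rose and 0 fell, and with the GC trend removed 0 rose. BOP1, of the PeBoW complex of large-subunit assembly, fell from 176, 163 and 172 CPM to 120.5, 121 and 116 CPM in KYSE-410 and rose from 121 and 129 CPM to 151 and 156 CPM in KYSE-30 (interaction -0.81, SE 0.0763). RRP9 (-0.9) and NOP58 (-0.82), both of small nucleolar ribonucleoproteins, followed. MYC itself was not called in either line (0.04 and 0.09). Of 32 cytosolic ribosomal proteins, 2 were called below 0, among them RPL3 (-0.22), and 0 above (4 at an unadjusted p below 0.05, and 0 by edgeR and DESeq2), and their median of 0.06 became -0.02 with TMM scaling. RPL3 was not called with the GC trend removed (adjusted p 0.104).

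Lipid synthesis and NRF2 targets leaned below 0. Of 28 cholesterol and fatty acid genes, 13 had a called interaction below 0 and 4 above (median -0.24). FASN, fatty acid synthase, gave -1.03 (SE 0.14) and MVD of the mevalonate pathway -0.61 (SE 0.0983), while INSIG1, HMGCS1, MSMO1 and SC5D lay above 0. Of 22 NRF2 targets, 10 were called below 0 and 1 above (median -0.25), led by the transporter ABCC3 (-0.83, SE 0.0956), the pentose phosphate enzyme TKT (-0.68, SE 0.105) and UGDH (-0.54, SE 0.0879). UGDH fell in both lines by the calls, from 209, 198 and 197 CPM to 115, 106 and 109 CPM in KYSE-410 and from 33.7 and 30.3 CPM to 24.6 and 26 CPM in KYSE-30, where the call was lost with the GC trend removed (adjusted p 0.0684).

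The ER chaperone and unfolded protein list counted 6 above 0 and 5 below among 23 (median -0.04), also near the shares over all 11516 genes. CALR (-0.65), SDF2L1 (-1) and CRELD2 (-0.56), all below, had the list's smallest adjusted p. ATF4 targets and serine synthesis genes counted 7 above and 4 below among 21, around a median of 0.08 that became -0.01 with TMM scaling. Over all 11516 genes, 25.3% were called above and 18.4% below. Asparagine synthetase ASNS measured 45.1, 41.9 and 43.1 CPM and then 107, 139 and 119 CPM in KYSE-410, and 50.1 and 62.2 CPM and 59.4 and 60 CPM in KYSE-30 with overlapping groups (interaction 1.36, SE 0.135). The stress factor ATF3 gave 1.46 (SE 0.173), and the amino acid transporter SLC7A5 lay on the other side (-0.9, SE 0.104).

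Among genes whose siCT and siSHIP2 libraries did not overlap in KYSE-410, the 8 most negative interactions came with a fall there. None of the 8 was called in KYSE-30. Separation in KYSE-410 was a condition of the choice. KRT6A, a keratin of activated squamous epithelium, measured 5.3, 6.2 and 4.3 CPM with siCT and 1.15, 0.85 and 1.3 CPM with siSHIP2 in KYSE-410. In KYSE-30 it measured 12.3 and 16.2 CPM and 16.1 and 19.5 CPM, with the siSHIP2 range overlapping the siCT range. The interaction was -1.88 (SE 0.215, adjusted p 1.54e-05), and since KRT6B and KRT6C are near-identical copies, how reads were shared among them is uncertain. NPR3, the clearance receptor for natriuretic peptides, fell from 35.3, 32 and 33.2 CPM to 11.2, 6.6 and 7.79 CPM in KYSE-410 (interaction -1.68, SE 0.201), with 8.24 and 8.24 CPM and 6.69 and 7.35 CPM in KYSE-30. CPNE2, a calcium-dependent membrane binder, gave -1.55 (SE 0.198). NT5DC2, of the 5′-nucleotidase domain family, gave -1.49 (SE 0.137) and fell from 202, 189 and 187 CPM to 90.4, 63.6 and 72.6 CPM in KYSE-410, with 70.3 and 69.7 CPM and 77.3 and 76.8 CPM in KYSE-30. ELFN2 (-1.4), the carnosine methyltransferase CARNMT1 (-1.4), the Notch ligand JAG2 (-1.38) and the sugar phosphate exchanger SLC37A2 (-1.37) completed the 8, with SE between 0.138 and 0.153.

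Of 11 basal squamous markers, 6 were called below and 2 above (median -0.39), with the laminin-binding integrin subunits ITGA3 (-0.66, SE 0.114) and ITGB4 (-0.56, SE 0.103) below. Under TMM and relative log expression scaling 6 were below and 0 above. Of 14 squamous differentiation genes, 6 were below and 3 above around a median of 0.06, which became -0.01 with TMM scaling, with NOTCH1 (-0.99) below and the factor GRHL3 (0.58) above. Of 32 integrin and focal adhesion genes, 14 were below and 5 above (median -0.15). FLNA, the actin crosslinker filamin A, which binds SHIP2, fell by 0.86 in KYSE-410 and changed by 0.35 in KYSE-30 (adjusted p 0.0544), an interaction of -1.21 (SE 0.118). The tensin TNS4 measured 5.65, 6.35 and 5.4 CPM and then 3.2, 2.4 and 2.2 CPM in KYSE-410, and 121 and 132 CPM and then 166 and 162 CPM in KYSE-30 (interaction -1.3, SE 0.15). The integrin subunit ITGB8 went the other way (1.32, SE 0.168), rising in KYSE-410 from 30.7, 32.1 and 33.9 CPM to 62.3, 61.9 and 51.9 CPM and measuring 26.7 and 18.8 CPM and 14.4 and 17.3 CPM in KYSE-30.

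Matrix and protease genes counted 8 above 0 and 9 below among 24, where 25.3% and 18.4% of all 11516 genes were called. The gelatinase MMP2 (-1.09), the adhesion protein TGFBI (-1.04) and thrombospondin THBS1 (-0.83), all below, had the list's smallest adjusted p. The TGF-beta and BMP response list counted 10 above and 7 below among 24. Its smallest adjusted p belonged to CDKN2B above (1.2), and to TGFBI (-1.04) and the ligand TGFB1 (-0.75) below. Of 29 genes of clathrin-mediated endocytosis, 10 were below and 3 above. Dynamin DNM2, which pinches off vesicles, measured 179, 184 and 177 CPM and then 90.8, 86.3 and 86.9 CPM in KYSE-410 and 214 and 209.9 CPM and then 206 and 205 CPM in KYSE-30 (interaction -0.98, SE 0.07). The clathrin adaptor subunit AP2A1 (-1.03) and HIP1 (-1.29) were next. Of 23 p53 targets and regulators, 9 were above and 3 below. RRM2B (0.94) and the repair factor XPC (0.63) lay above 0, and CDKN1A below as given. Of 13 genes of the small RNA machinery, which siRNAs use, 1 was above, AGO4 (1.31), and 3 were below, PRKRA (-0.58), AGO1 (-0.32) and XPO5 (-0.28). Over all 11516 genes the shares were 25.3% above and 18.4% below. AGO1 missed the call when 1 library was left out (adjusted p up to 0.095). Among markers of other tissues that reached 5 CPM in both lines, VIL1 (0.74) and COL1A1 (0.51) lay above 0 and KRT8 (-0.33) and KRT18 (-0.27) below. Under the 3 other scalings COL1A1 was not called. COL1A1 and KRT18 missed the call when 1 library was left out (adjusted p up to 0.153 and 0.0697), and the part of these markers in the other results was not tested.

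In 109 genes (0.947%, background 0.552%) both lines were called in opposite directions, and all 109 interactions were called. Of these, 70 rose in KYSE-410 and fell in KYSE-30, and 39 did the reverse. CCNG2 (chr4:77157151-77433388, GRCh38), an unusual cyclin tied to growth arrest and a FOXO target, measured 14, 16.8 and 16.3 CPM and then 41.5, 47.6 and 40.9 CPM in KYSE-410, and 17.8 and 9.79 CPM and then 6.34 and 8.4 CPM in KYSE-30. The interaction was 2.19 (SE 0.239, adjusted p 1.14e-05), from 1.41 in KYSE-410 and -0.78 in KYSE-30 (adjusted p 0.0411). IGFBP3 (chr7:45912245-45921874, GRCh38) measured 20.1, 25.5 and 23.8 CPM and then 74.7, 66.1 and 84.7 CPM in KYSE-410, and 155 and 109 CPM and then 75.4 and 89.1 CPM in KYSE-30, an interaction of 2.32 (SE 0.184). In both genes the libraries did not overlap in either line, and the KYSE-30 siCT libraries had the largest SD of the 4 groups, at 5.69 CPM and 32.1 CPM (n = 2).

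The other genes of this pattern that ranked first were PCMTD1, with a carboxyl methyltransferase domain (1.62), the translation inhibitor PDCD4 (2.07), HBP1, a repressor of cell cycle genes (1.37), GRAMD2B, a lipid-binding GRAM domain protein (1.21), the membrane protein FLRT3 (1.09) and the secreted FAM3C (0.98). HBP1 measured 41, 42 and 44.3 CPM and then 74.1, 84.6 and 79.5 CPM in KYSE-410, and 41.2 and 32.9 CPM and then 25.6 and 26.5 CPM in KYSE-30. FAM3C measured 110.4, 105 and 107 CPM and then 150.2, 156 and 154 CPM in KYSE-410, and 80.9 and 75 CPM and then 51.4 and 60.2 CPM in KYSE-30. The reverse pattern was led by PLEKHN1, with a pleckstrin homology domain (-1.01), the kinase WNK2 (-1.06), the actin-linked PDLIM7 (-0.85) and MISP (-0.92), and the mitochondrial glutamate carrier SLC25A22 (-0.79). C20orf27 (-0.72), TMEM8A (-0.8) and PYCR3 of proline synthesis (-0.72) came next. PDLIM7 measured 116, 109.6 and 111 CPM and then 83.6, 81.3 and 75.9 CPM in KYSE-410, and 113 and 121 CPM and then 158 and 146 CPM in KYSE-30.

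GC content moved with the KYSE-30 change. Over 11496 genes with a transcript sequence, the KYSE-30 change had a Spearman rho of 0.50 with the GC content of the longest GENCODE transcript, the KYSE-410 change one of -0.11 and the interaction one of -0.30, as descriptions across genes. The 70 genes that rose in KYSE-410 and fell in KYSE-30 had a median GC content of 40.4%, the 39 of the reverse pattern 63.2%, and all 11516 genes 48.0%. Genes called in KYSE-30 differed in GC content as a whole: all 126 that rose there had a median of 60.9% and all 280 that fell 41.6%, and the 40 that rose and 132 that fell in both lines had 60.5% and 43.0%. The median KYSE-30 change ran from -0.11 in the fifth of genes with the least GC to 0.10 in the fifth with the most, while in KYSE-410 it ran from 0.10 to -0.01. By library, deviations from the line's mean had a rho with GC content of -0.24 and -0.53 in the KYSE-30 siCT libraries and 0.53 and 0.16 in the siSHIP2 libraries, so the libraries of 1 group differed too. With the GC trend removed from each library, 4894 interactions were called among the 11516 genes in place of 5031, but 145 genes were called in KYSE-30 in place of 406 and 23 in opposite directions in place of 109. IGFBP3, PCMTD1, GRAMD2B, HBP1 and FAM3C kept their KYSE-30 call, CCNG2 (adjusted p 0.0773), PDCD4 and FLRT3 lost it, and so did all 8 of the reverse pattern. The 16 interactions stayed called, CCNG2 at 2.1 and PDLIM7 at -0.71. Whether GC content had a part in the opposite directions was not tested beyond this.

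**Figure D4:**
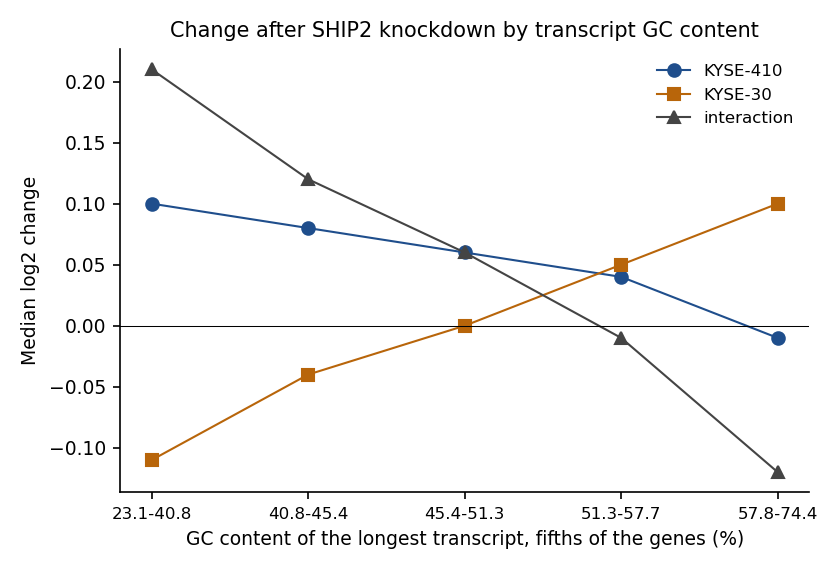
Median log2 change (vertical axis) of KYSE-410, KYSE-30 and the interaction in 5 classes of about equal size of 11496 genes by GC content of the longest transcript (horizontal axis, percent). The KYSE-30 line climbs from -0.11 to 0.10, the KYSE-410 line declines from 0.10 to -0.01, and the interaction runs from 0.21 to -0.12.

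The number of KYSE-30 calls depended on single libraries. Left out in turn, KYSE-30 siCT replicate 1 and siSHIP2 replicate 1 brought the 406 KYSE-30 calls to 15 and 13 and the 109 opposite calls to 1 and 1, while without siCT replicate 2 and siSHIP2 replicate 2 they were 320 and 350 and the opposite calls 116 and 137. Each of these fits leaves 1 library in a KYSE-30 group, which is then assumed to vary like the libraries of the other groups. Without KYSE-410 siCT replicate 1, 2 or 3 the KYSE-30 calls were 204, 186 and 218 and the opposite calls 44, 49 and 48. Without KYSE-410 siSHIP2 replicate 3 they were 242 and 56, and without siSHIP2 replicate 1 684 and 191. In 12 genes the KYSE-30 call held without each library, and in 0 genes did opposite calls do so. The interaction calls among the 11516 genes ranged from 3786 to 5458 over the same fits.

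In 167 genes a called interaction came with a KYSE-30 call and a larger change in KYSE-30 than in KYSE-410, of which 105 fell in KYSE-30 and 62 rose. PTPRR, a phosphatase of ERK kinases, fell in KYSE-30 from 9.59 and 7.39 CPM to 3.3 and 4.6 CPM and measured 26.9, 30.2 and 29 CPM and 33.7, 29.1 and 31.7 CPM in KYSE-410 with overlapping groups. The interaction was 1.07 (SE 0.169, adjusted p 0.000205). The 3 genes of the glycolysis and hypoxia list that were called in KYSE-30 also fell there. The prolyl hydroxylase P4HA1 of collagen fell in KYSE-30 from 65.3 and 69.1 CPM to 42.9 and 46.4 CPM and rose slightly in KYSE-410 from 60.4, 63.5 and 59.6 CPM to 71.3, 67.9 and 68.3 CPM, an interaction of 0.75 (SE 0.0853). Its KYSE-30 call was one of the 12 that held without each library (adjusted p up to 0.0288). EGLN3, a hydroxylase that marks HIF for destruction, gave 1.02 (SE 0.155), with 26 and 20.7 CPM and then 13.3 and 14.5 CPM in KYSE-30 and 7.4, 8 and 7.05 CPM and then 8.7, 9.89 and 10.2 CPM in KYSE-410. BNIP3L, a mitophagy receptor, gave 0.99 (SE 0.124), and NDRG1 1.55 (SE 0.11), the latter led by KYSE-410.

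P4HA1, EGLN3 and BNIP3L were called in opposite directions in the lines, and they kept their KYSE-30 call with the GC trend removed. In all, 5 interactions of the list's 26 genes were called above 0 and 7 below (median -0.07). Over all 11516 genes, 25.3% were called above and 18.4% below. The glycolytic enzyme GPI lay lowest (-1.08, SE 0.12). It measured 539, 535 and 511 CPM and then 273, 203 and 243 CPM in KYSE-410. In KYSE-30 it measured 584 and 616 CPM and then 585 and 556 CPM. The metalloprotease inhibitor TIMP3 fell in KYSE-30 from 35.4 and 25.8 CPM to 19.4 and 22.4 CPM and rose in KYSE-410 from 142, 138 and 133 CPM to 192, 175 and 187 CPM (interaction 0.94, SE 0.136). LZTFL1 (0.85) and TBC1D8B (0.8) also fell in KYSE-30 and rose in KYSE-410, and both lost their KYSE-30 call with the GC trend removed (adjusted p 0.0815 and 0.0879).

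Genes that rose in KYSE-30 and not in KYSE-410 included interferon-stimulated ones. IFIT1, an RNA-binding antiviral protein, measured 12.5 and 11.6 CPM and then 20.7 and 22.8 CPM in KYSE-30, and 6.7, 6.3 and 7.89 CPM and 6.65, 4.75 and 8.14 CPM in KYSE-410 with overlapping groups, an interaction of -0.9 (SE 0.213, adjusted p 0.00406). IFIT3 (-0.72, SE 0.152) and IFI44 (-0.71, SE 0.153) followed, IFI44 going from 5.5 and 7.25 CPM to 9.39 and 11.4 CPM in KYSE-30 against 20.8, 22.6 and 22.6 CPM and 19.7, 21 and 21.7 CPM in KYSE-410. Of 22 interferon-stimulated genes that reached 5 CPM in both lines, 6 rose and 0 fell in KYSE-30 by limma (IFIT1, IFIT3, IFI44, OAS3, OASL and ISG15), where 0.811% of all tested genes rose and 1.54% fell. In KYSE-410 6 rose and 6 fell, against a background of 30.6% and 19.3%. Of the 11516 genes, 126 rose and 280 fell in KYSE-30, and 4136 rose and 3035 fell in KYSE-410. At an unadjusted p below 0.05, 5 of the 22 were lower in KYSE-30, and edgeR called 0 and DESeq2 1 of them. The interaction was called below 0 in 6 and above 0 in 3, among them STAT2 (0.61) and UBE2L6 (0.65), around a median of -0.08. With the GC trend removed, 3 of the 22 stayed called in KYSE-30 and the interaction counts were 5 below and 3 above, and IFIT1, IFIT3 and IFI44 kept both calls. The KYSE-30 calls of these 3 genes did not hold without each library in turn. IFIT2 fell in KYSE-410 and was not called in KYSE-30 (interaction -0.95, SE 0.16).

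The interferon-sensitive response element, read here as GAAA, any 2 bases and GAAA again on either strand, was found in 11 of the 18 interferon-stimulated genes with a promoter window (61.1%), in 3.76% of the 8247 matched genes and in 4.38% of all genes of the table. Stretches of IFIT1 at chr10:89392462-89392561, IFIT3 at chr10:89327796-89327895 and IFI44 at chr1:78649726-78649825 are shown on the plus strand, with each match, here in its reverse form, in capitals.
IFIT1: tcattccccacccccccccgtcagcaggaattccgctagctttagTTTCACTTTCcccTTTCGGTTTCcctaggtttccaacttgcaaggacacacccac
IFIT3: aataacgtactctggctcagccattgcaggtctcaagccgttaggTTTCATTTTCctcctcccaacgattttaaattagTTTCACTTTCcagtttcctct
IFI44: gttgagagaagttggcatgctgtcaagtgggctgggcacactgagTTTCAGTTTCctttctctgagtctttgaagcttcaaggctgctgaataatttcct
IFIT1 and IFIT3 hold the element more than once in the stretch shown. The list was chosen for its known regulation by interferon, so the element there is a property of the list and not of these data.

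Other genes that rose in KYSE-30 with an interaction below 0 were FSTL3, a secreted binder of activin, CDC42EP2, a CDC42 effector, and JUNB. FSTL3 measured 4.4 and 6.2 CPM and then 9.04 and 9.04 CPM in KYSE-30, and 53.1, 49.9 and 51.5 CPM and then 48.5, 41.1 and 41.7 CPM in KYSE-410, an interaction of -0.92 (SE 0.148, adjusted p 0.000241). CDC42EP2 gave -0.79 (SE 0.143) and JUNB -0.69 (SE 0.116), and both lost their KYSE-30 call with the GC trend removed, with adjusted p of 0.117 and 0.092.

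A smaller set was called in the same direction in the 2 lines. Of the 406 genes called in KYSE-30, 281 were called in KYSE-410 too, where 62.3% of all 11516 genes were called. Of the 281, 172 had the same direction, 40 rising and 132 falling. Whether the 281 exceed that share was not tested. With the GC trend removed 82 genes were called in the same direction, and with the replicate block 33. Of the 172, 53 also had a called interaction, with the larger change in KYSE-410 in 44 and in KYSE-30 in 9. PSIP1, the chromatin reader LEDGF, fell in KYSE-410 from 86.3, 92.1 and 86.8 CPM to 29.9, 21.4 and 26.6 CPM and in KYSE-30 from 60.2 and 64.2 CPM to 24.8 and 27.2 CPM. No siSHIP2 library came near a siCT library, and the changes of -1.74 and -1.23 differed between lines by -0.51 (SE 0.14, adjusted p 0.0106, up to 0.0698 when 1 library was left out). The KYSE-30 change of the target INPPL1 was -0.65, and the difference between both genes was not tested. CFL2, a cofilin that severs actin filaments, fell by 1.31 and 0.67 (interaction -0.64, SE 0.0945).

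SSBP3, a single-stranded DNA binding cofactor, fell by 1.28 and 0.95 with no called difference (adjusted p 0.0886). The Rab GTPases RAB15 and RAB38 fell in both lines. RAB15 had a called interaction of -0.38 (adjusted p 0.0268, up to 0.159 when 1 library was left out), and RAB38 one of -0.11 that was not called (adjusted p 0.504). KCNK2, a potassium channel, fell by 0.65 in KYSE-410 and 1.15 in KYSE-30, and its interaction of 0.5 (SE 0.241) was not called (adjusted p 0.125). PSKH1, a serine kinase, rose in KYSE-410 from 14.8, 13.8 and 13.7 CPM to 26, 27.6 and 28.4 CPM and in KYSE-30 from 28.4 and 28.3 CPM to 49 and 49.4 CPM, with an interaction of 0.13 (SE 0.101) that was not called. The 12 genes whose KYSE-30 call held without each library were PSIP1, CFL2, SSBP3, PSKH1, P4HA1, CREG1, RCN2, UQCRC2, ZNF608, TNC, NCEH1 and NACC2, chosen by that count after their values were seen. Of the 12, 9 were also called in KYSE-410 in the same direction and P4HA1 in the opposite one, while CREG1 (-0.79 in KYSE-30, -0.01 in KYSE-410) and RCN2 (-0.66 and 0.01) were called in KYSE-30 only.

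At the 5 CPM limit in KYSE-410, GPR89B lay just inside with a siCT mean of 5.01 CPM and SPRY2 just outside, at 5 CPM after rounding, and their interactions were 0.49 and 0.42. In KYSE-30, TLE4 lay just inside with 5.02 CPM and CYP2J2 just outside, at 5 CPM after rounding, with interactions of 0.75 and -0.02.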

How the data were processed

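RNA-seq was analysed from 10 libraries of KYSE-410 and KYSE-30. The deposited CPM values, per the file headers, cover 58302 genes, and per the submitters' processing notes the tools were STAR 2.5.3a and HTSeq with the build hg38; how counts became CPM is not given in the sources used here. In each library 99.89% to 100.0% of values below 20 CPM were whole multiples of 1 step within 0.00055 CPM, and the whole numbers summed to 20.01 to 20.023 M, so the true depth is unknown and they are likely counts rescaled to one total. Precision therefore rests on the replicates.

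A gene was tested when 2 or more libraries reached 0.5 CPM. limma 3.58.1 in R 4.3.3, with a mean-variance trend, was fitted to log2(CPM + 1) over all 10 libraries with 4 group means, and p-values were adjusted by Benjamini-Hochberg over all 20466 tested genes, with calls below 0.05. Fold changes on this scale understate the change of low genes. Counting models, edgeR 4.0.16 and DESeq2 1.42.0, were run on the recovered whole numbers as alternatives only, and edgeR called 4796 interactions among the 11516 genes. The scripts were tested on simulated data. Gene positions, GC content and lengths come from GENCODE 29.

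The genes and lists were chosen with earlier results of these data known. Named genes were INPPL1, up to 8 per pattern of opposite calls, 3 per list by adjusted p and the 8 largest shared changes. A fixed set and the genes at the 5 CPM limit were added. The 8 largest interactions per sign were taken among genes whose siCT and siSHIP2 libraries did not overlap in KYSE-410. Up to 8 per direction led by KYSE-30 were taken under the same condition in KYSE-30. Both of these picks took only symbols of letters, digits and hyphens. Other list members are examples chosen after their values were seen. Removal of GC and length trends and the crossed replicate block were chosen after seeing the data. The searches for promoter letters were not planned beforehand. Same-numbered libraries of KYSE-410 did not deviate together, and in KYSE-30 2 libraries per group could not show it. Numbers were not used as pairs in the main fit. Some genes that the rule selects are not reported here.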

Additional observations from a re-analysis of the deposited data

Results flagged for a closer look

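The same contrast differed between the lines by the test of the difference itself in 5031 of the 11516 genes, and 109 genes were called in opposite directions. The target INPPL1 was among the 5031, at -0.75 on the log2 scale, the fall being larger in KYSE-410. The genes that rose in KYSE-410 and fell in KYSE-30 with the largest smaller change had interactions of 2.19 (CCNG2), 2.32 (IGFBP3), 1.62 (PCMTD1), 1.21 (GRAMD2B), 2.07 (PDCD4), 1.09 (FLRT3), 1.37 (HBP1) and 0.98 (FAM3C). Those of the reverse pattern had interactions of -1.01 (PLEKHN1), -1.06 (WNK2), -0.85 (PDLIM7), -0.92 (MISP), -0.79 (SLC25A22), -0.72 (C20orf27), -0.8 (TMEM8A) and -0.72 (PYCR3). All 16 interactions were called with the GC trend removed. Their opposite directions were less stable. With that trend removed, only IGFBP3, PCMTD1, GRAMD2B, HBP1 and FAM3C kept the KYSE-30 call. The KYSE-30 calls of the 16 genes did not hold without each library in turn.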

How the results depend on the processing

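Of 137 named genes besides INPPL1, 126 had a called interaction, and 118 of these kept direction and call under every alternative except the test against a 1.5-fold difference and the INPPL1 ratio. Of the 126, 44 kept direction and call against a 1.5-fold difference and 82 were no longer called. With the INPPL1 ratio, 108 kept direction and call and 15 were no longer called. With each KYSE-30 change multiplied by that ratio, 2905 of all tested genes and 2391 of the 11516 had a called interaction. Among the genes that changed sign were PSIP1 (0.92), PSKH1 (-0.77), CFL2 (0.13) and RAB15 (0.39), as the multiplication enlarges their KYSE-30 change. Against a 1.5-fold difference, 183 interactions were called over all genes and 123 among the 11516, with 310 genes called in KYSE-410, 0 in KYSE-30 and 0 in opposite directions, and INPPL1 stayed at -0.75 (adjusted p 1, limma). KYSE-30 calls and opposite calls numbered 145 and 23 with the GC trend removed, 233 and 41 with GC and length trends removed, and 56 and 13 with no filter; the cause was not tested. The replicate block gave 64 and 12. Same-number correlations of deviations from the group means were 0.041, -0.165 and 0.092 in KYSE-410 and -0.116 in KYSE-30. With 2 libraries per group, both KYSE-30 pairs must give the same value. It therefore cannot show whether the KYSE-30 libraries were paired. The block with the KYSE-30 numbers crossed gave 381 and 116. Leaving out each library gave -0.83 to -0.69 for INPPL1, 4864 to 7269 interactions over all genes and 3786 to 5458 among the 11516, 6260 to 7292 KYSE-410 calls, 13 to 684 KYSE-30 calls and 1 to 191 opposite calls. The precision of the KYSE-30 changes is that of 2 libraries per group, and sequencing depth is unknown.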
